A study of Mus musculus with 16 samples.

Results

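The 8 genes described here write, copy and remove DNA methylation or, in the case of Smchd1, act on the inactive X chromosome: Dnmt1, Dnmt3a, Dnmt3b, Dnmt3l, Uhrf1, Tet1, Tet2 and Smchd1. They were chosen by name and looked up by Ensembl identifier in GENCODE M21, and they are 8 of the 55421 genes counted. All 8 passed the filter on low counts and were among the 18150 genes tested. The counts came from RNA-seq of female mouse ESCs (129/Sv x Cast/Ei hybrids) that were either Wt or Spen-/-, with the whole Spen open reading frame deleted from both alleles. Wt and Spen-/- cells alike carried an endogenous doxycycline-responsive Xist promoter on the Cast X chromosome. Each genotype was sampled undifferentiated (day 0) without doxycycline, at day 0 after 4 days of 2 µg/mL doxycycline, at day 3 of monolayer differentiation without doxycycline, and at day 7 of differentiation with doxycycline, with 2 replicate libraries in each of the 8 conditions. Doxycycline-treated cells were sorted for dsRed, and no sort is described for untreated cells, so that doxycycline and this sort cannot be told apart. The differentiation medium lacked LIF and contained ascorbic acid. The replicates are described as biological, without saying whether they came from separate cultures or clones, and the p-values measure the spread between them.

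DNMT3A and DNMT3B add methyl groups to unmethylated CpGs, and DNMT3L, which has no catalytic activity of its own, stimulates them. DNMT1 copies methylation onto the new strand after replication and is brought to hemimethylated CpGs by UHRF1, while TET1 and TET2 oxidise 5-methylcytosine on the way to its removal. SMCHD1 is an SMC-like protein that is recruited to the inactive X chromosome, where it takes part in CpG island methylation and in keeping genes silent. Female ESCs with both X chromosomes active are known for low genome-wide DNA methylation, so the levels of these genes were followed across Xist induction and differentiation.

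The 8 genes lie on 6 autosomes in GRCm38, none of them on the X chromosome. Dnmt1 is at chr9:20907209-20959888 on the minus strand, Dnmt3a at chr12:3806007-3914443 on the plus strand, Dnmt3b at chr2:153649450-153687730 on the plus strand and Dnmt3l at chr10:78041947-78063622 on the plus strand. Uhrf1 is at chr17:56303321-56323486 on the plus strand, Tet1 at chr10:62804570-62908996 on the minus strand, Tet2 at chr3:133463679-133545139 on the minus strand and Smchd1 at chr17:71344489-71475343 on the minus strand. The exons of Dnmt3l share 67 bp, 2.24% of their length, with exons of Aire on the opposite strand, and the other members share at most 0.799% of their exons with another gene. The counting is not stated to have used strand, so reads in those 67 bp cannot be assigned to either gene. Dnmt3c, a close copy of Dnmt3b that could share reads with it, was at 0.264 to 2.64 CPM (reads of a gene scaled to the size of its library by TMM) in the 16 libraries.

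The RefSeq promoter windows (GRCm38.p6, 250 bases before to 50 after a transcription start) were found for 8 of 8 members, in 15 windows. They are shown for 3 members because they carry main differences in level described later: Dnmt3l, the member with the widest range of levels, Dnmt3b, the de novo methyltransferase that was higher after doxycycline, and Tet2, which was lower at day 3. CG dinucleotides, the target of DNA methylation, are in capitals.
Dnmt3l upstream start, chr10:78042037-78042336, plus strand: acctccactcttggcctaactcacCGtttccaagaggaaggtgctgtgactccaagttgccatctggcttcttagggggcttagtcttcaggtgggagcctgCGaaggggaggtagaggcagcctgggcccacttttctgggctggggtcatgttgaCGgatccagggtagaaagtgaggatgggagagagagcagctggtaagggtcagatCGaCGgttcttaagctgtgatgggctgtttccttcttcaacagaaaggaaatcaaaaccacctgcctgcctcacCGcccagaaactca
Dnmt3l middle start, chr10:78049592-78049891, plus strand: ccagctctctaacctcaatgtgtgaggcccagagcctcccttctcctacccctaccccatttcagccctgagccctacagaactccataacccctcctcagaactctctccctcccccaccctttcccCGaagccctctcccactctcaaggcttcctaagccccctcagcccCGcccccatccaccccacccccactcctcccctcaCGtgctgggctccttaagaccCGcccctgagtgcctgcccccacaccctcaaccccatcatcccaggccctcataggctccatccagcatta
Dnmt3l downstream start, chr10:78055085-78055384, plus strand: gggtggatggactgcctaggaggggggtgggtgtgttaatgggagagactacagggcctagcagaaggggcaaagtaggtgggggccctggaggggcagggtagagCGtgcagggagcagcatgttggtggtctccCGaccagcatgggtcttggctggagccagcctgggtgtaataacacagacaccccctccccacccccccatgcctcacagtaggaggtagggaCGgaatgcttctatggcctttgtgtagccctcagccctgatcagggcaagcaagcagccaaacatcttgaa
Dnmt3b, chr2:153649199-153649498, plus strand: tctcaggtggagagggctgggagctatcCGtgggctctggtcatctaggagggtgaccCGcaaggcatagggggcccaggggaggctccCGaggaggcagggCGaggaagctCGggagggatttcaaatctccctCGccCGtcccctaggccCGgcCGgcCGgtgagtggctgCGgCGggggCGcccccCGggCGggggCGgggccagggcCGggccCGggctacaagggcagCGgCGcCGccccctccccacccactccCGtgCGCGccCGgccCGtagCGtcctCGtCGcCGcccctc
Tet2, chr3:133544341-133544640, minus strand: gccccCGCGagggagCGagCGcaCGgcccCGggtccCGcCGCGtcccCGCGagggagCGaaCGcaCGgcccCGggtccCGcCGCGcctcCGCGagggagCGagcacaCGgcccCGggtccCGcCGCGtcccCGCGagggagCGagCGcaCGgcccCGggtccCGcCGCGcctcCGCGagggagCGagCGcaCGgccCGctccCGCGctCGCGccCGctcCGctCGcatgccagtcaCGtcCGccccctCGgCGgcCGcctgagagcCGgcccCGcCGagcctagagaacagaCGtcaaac

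The 3 windows of Dnmt3l held 6, 4 and 3 CGs, against a median of 7 over all 32851 windows in the table, and 56.4%, 68.6% and 76.7% of all windows held at least as many. The Dnmt3b window held 30 CGs, a number reached by 11.7% of all windows. The Tet2 window held 57, a number reached by 0.152% of all windows. Among the other members, Smchd1 had 40 CGs in its only window, Tet1 had 17, Dnmt3a had 18 to 47 in its 3 windows, Dnmt1 had 2 to 33 in its 3 windows and Uhrf1 had 12 and 33 in its 2 windows. Counts per gene do not tell which start was used, and DNA methylation was not measured.

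Reads on genes per library ranged from 7571566 to 14822867, and the 8 members had between 5297 (Tet2) and 48972 (Dnmt3b) reads over all 16 libraries. As a check of the labels, Spen itself had between 178 and 501 reads per Wt library and between 1 and 40 per Spen-/- library. All 7 pluripotency markers were detected in every library, and their summed level at day 0 was 1266 to 2211 CPM. The 2 Spen-/- day 7 libraries stood apart: they had 15324 and 14969 genes detected, against 16952 to 23458 in the other 14, and their summed pluripotency level was 606 and 688 CPM, against 152 and 143 in Wt at day 7. Of these 7 markers 5 were called higher and 1 was called lower by edgeR in Spen-/-. The remaining marker was also above both Wt libraries in both Spen-/- libraries. The largest part of the sum was Zfp42 (322.6 and 293.1 CPM against 18.9 in each Wt library), while Pou5f1 was the lower one (29.7 and 19.8 CPM against 52.9 and 48.1 CPM, edgeR adjusted p = 0.0465). They had 0 reads of T, a primitive streak marker, whose level in Wt at day 7 was 192 and 211 CPM. The part of these differences in the day 7 results was not tested, and in bulk RNA fewer cells of a type and less RNA per cell cannot be told apart.

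Levels per kilobase of exon, averaged over the 16 libraries, were 55.5 CPM per kb for Dnmt3b, 48.7 for Dnmt3l, 44.5 for Uhrf1, 22.2 for Dnmt1, 16.3 for Dnmt3a, 12.4 for Tet1, 4.17 for Smchd1 and 2.14 for Tet2. In undifferentiated Wt ESCs without doxycycline the order was Dnmt3l, Uhrf1, Dnmt3b, Dnmt1, Tet1, Dnmt3a, Tet2 and Smchd1. Between neighbours in that order, the ranges of the 2 libraries overlapped for Dnmt3l with Uhrf1, Uhrf1 with Dnmt3b, Dnmt1 with Tet1, and Tet2 with Smchd1, and did not overlap at the steps from Dnmt3b to Dnmt1, from Tet1 to Dnmt3a and from Dnmt3a to Tet2. The order depended on the length used: with the longest transcript the same 3 genes led and Tet2 and Smchd1 were again lowest, whereas with the median transcript Tet1 and Dnmt3a led at 519.6 and 339.0 CPM per kb, their median annotated transcripts being 599.5 and 820.5 bases long.

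**Figure D1:**
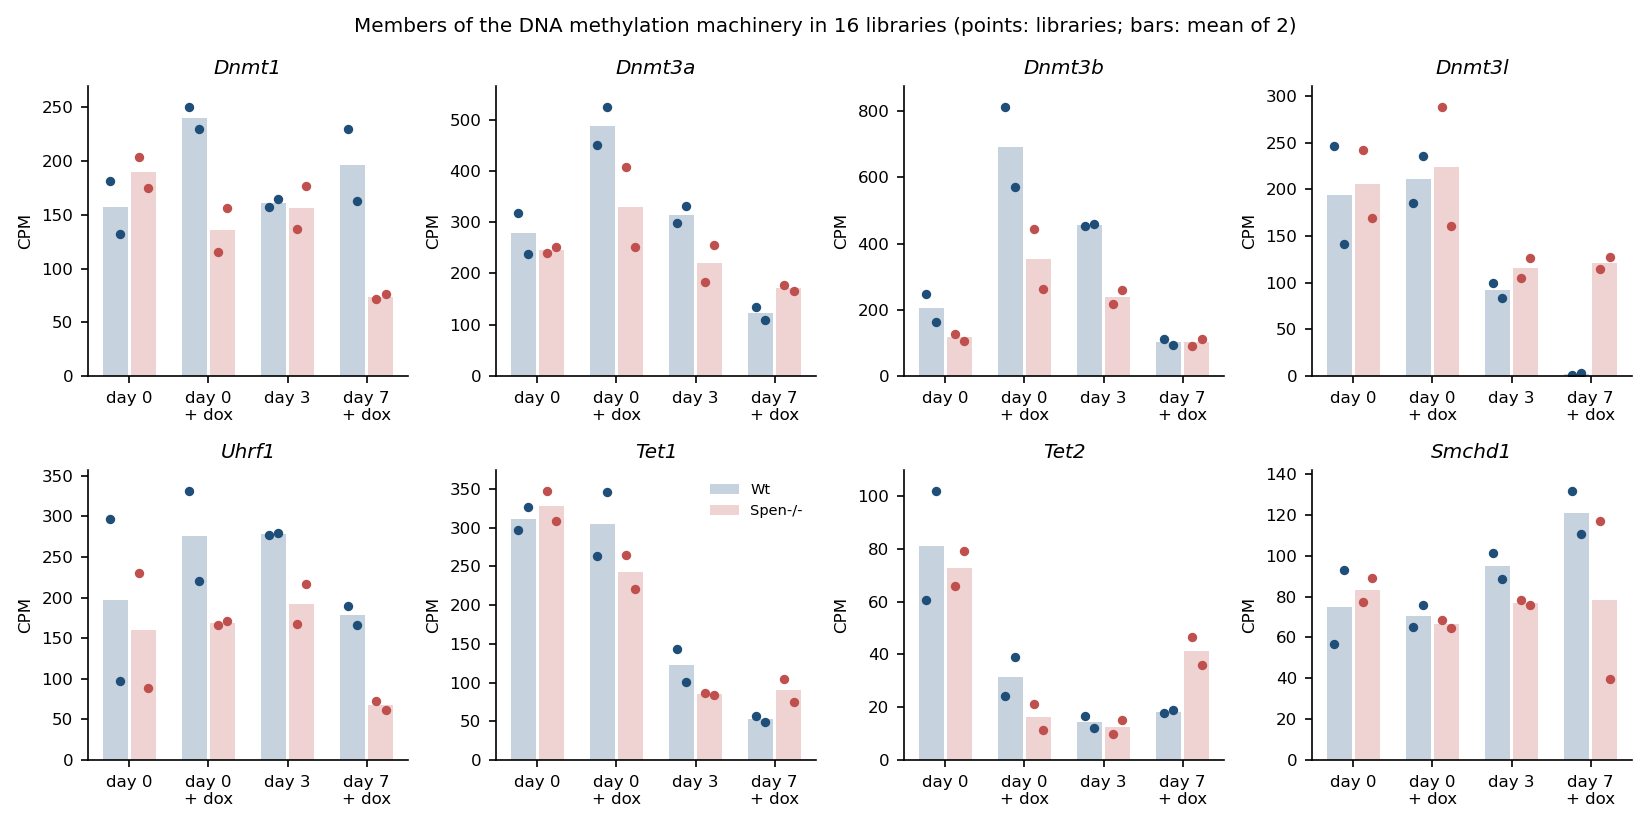
Level of each member in CPM (TMM-scaled, linear axis from 0) in the 4 conditions of Wt and Spen-/- cells, with points for the 2 libraries and bars for their mean. Dnmt3l in Wt at day 7 sits at 1.26 and 3.17 CPM, whereas in Spen-/- at day 7 it is at 114.4 and 127.9 CPM.

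Of the de novo group, Dnmt3l, the stimulating partner, changed most in level. Its level in Wt was 245.9 and 141.9 CPM at day 0, 185.7 and 235.3 CPM at day 0 with doxycycline, 99.6 and 83.7 CPM at day 3, and 1.26 and 3.17 CPM (15 and 35 reads) at day 7. Spen-/- cells had 242.4 and 169.5 CPM at day 0, 287.6 and 160.6 CPM at day 0 with doxycycline, 104.9 and 126.1 CPM at day 3, and 114.4 and 127.9 CPM at day 7. Wt and Spen-/- overlapped in both day 0 conditions, and at day 7 every Spen-/- library was above every Wt library. In Wt, Dnmt3l fell by 6.57 on the log2 scale from day 0 to day 7, both with doxycycline (SE 0.51, edgeR adjusted p = 1.65e-05, n = 2 against 2). In Spen-/- the same difference was -0.89 (SE 0.39, edgeR adjusted p = 0.187). The difference between these changes was 5.68 (SE 0.61, edgeR adjusted p = 0.000728), and at day 7 Dnmt3l was 54.7-fold higher in Spen-/- than in Wt (log2 5.77, SE 0.49, edgeR adjusted p = 5.03e-05). Leaving out each library in turn gave log2 differences of 5.21 to 6.56 at day 7. Aire, the neighbour on the opposite strand, was at 0 and 0 CPM in Wt and at 7.07 and 0.814 CPM in Spen-/- at day 7.

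Dnmt3b, the methyltransferase of the early embryo, was higher with doxycycline at day 0 and, without doxycycline, higher at day 3 than at day 0. Averaged over the 4 conditions it was lower in Spen-/- cells, with no single condition passing the test. Its level in Wt was 246.6 and 164.6 CPM at day 0, 811.5 and 572.6 CPM at day 0 with doxycycline, 452.2 and 459.5 CPM at day 3, and 112.0 and 93.8 CPM at day 7. Spen-/- cells had 128.0 and 105.3 CPM at day 0, 443.8 and 263.0 CPM at day 0 with doxycycline, 217.8 and 259.3 CPM at day 3, and 89.7 and 113.1 CPM at day 7. Both Spen-/- libraries were below both Wt libraries at day 0, at day 0 with doxycycline and at day 3, and the genotypes overlapped at day 7. Dnmt3b rose 3.36-fold with doxycycline in Wt (log2 1.75, SE 0.29, edgeR adjusted p = 0.0473). In Spen-/- the fold was 3.03 (log2 1.60, SE 0.29, edgeR adjusted p = 0.0862). The difference between the genotypes in this response was -0.15 on the log2 scale (95% interval -1.03 to 0.73, edgeR adjusted p = 0.999986). A true difference of any size within that interval is compatible with these libraries. The Wt call was kept without Wt day 0 1 or any 1 of the Spen-/- day 0 doxycycline and day 7 libraries, and was lost in the other 11 fits that left out a library (adjusted p 0.0587 to 0.392), with log2 differences of 1.47 to 2.10 over all 16 such fits. Averaged over both genotypes, a comparison added after the values were seen, Dnmt3b was 3.19-fold higher with doxycycline (edgeR adjusted p = 0.00543), and each of the 16 fits that left out a library kept this call.

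From day 0 to day 3 without doxycycline, averaged over the genotypes, Dnmt3b rose 2.13-fold (log2 1.09, SE 0.20, edgeR adjusted p = 0.00897). The change was 1.15 in Wt (edgeR adjusted p = 0.0796) and 1.03 in Spen-/- (edgeR adjusted p = 0.128) on the log2 scale, neither of which passed alone. From day 0 to day 7 under doxycycline it fell by 2.75 in Wt (SE 0.30, edgeR adjusted p = 0.000325) and fell by 1.80 in Spen-/- (SE 0.29, edgeR adjusted p = 0.00382). Averaged over the 4 conditions Dnmt3b was 1.61-fold lower in Spen-/- than in Wt (log2 -0.69, SE 0.14, edgeR adjusted p = 0.0198), with the mean lower in 4 of 4 conditions. An exact two-sided permutation of the genotype labels within conditions gave p = 0.00463, not adjusted, where the smallest p that its 1296 arrangements allow is 0.00154. Here and below, this permutation and the edgeR average treat the conditions as independent. Whether the same lines supplied all conditions is not stated, and if so a difference between lines would recur in each. The call in the edgeR fit was lost when 1 of 6 libraries was left out (Wt day 0 doxycycline 1, Wt day 3 1 and 2, Wt day 7 1, Spen-/- day 0 2 or Spen-/- day 3 1), with adjusted p from 0.0511 to 0.0682 and log2 differences over the 16 such fits from -0.81 to -0.62.

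Dnmt3a, the second de novo enzyme, was at 317.3 and 238.9 CPM in Wt at day 0, 449.9 and 523.9 CPM with doxycycline, 298.0 and 331.3 CPM at day 3, and 135.5 and 109.3 CPM at day 7. In Spen-/- the levels in the same order were 240.0 and 251.3 CPM, 408.3 and 252.4 CPM, 184.0 and 255.3 CPM, and 178.4 and 165.4 CPM. Wt day 7 was below every other Wt library, and at day 7 both Spen-/- libraries were above both Wt libraries. Dnmt3a fell by 1.99 on the log2 scale from day 0 to day 7 under doxycycline in Wt (SE 0.26, edgeR adjusted p = 0.00105) and fell by 0.94 in Spen-/- (SE 0.25, edgeR adjusted p = 0.0426). The Spen-/- call was lost in 13 of the 16 fits that left out a library (adjusted p 0.0528 to 0.299), that is, in all but those without Wt day 0 1, Wt day 0 2 or Spen-/- day 0 doxycycline 2, and the fall was 0.564 on the log2 scale without Spen-/- day 0 doxycycline 1. With doxycycline at day 0 the Dnmt3a difference was 0.81 in Wt (SE 0.25, edgeR adjusted p = 0.424), with no overlap between the Wt libraries. The ratio of Dnmt3a to Dnmt3b reads was 1.29 and 1.45 in Wt at day 0 and 0.554 and 0.915 with doxycycline, and in Spen-/- it was 1.87 and 2.39 at day 0 and 0.920 and 0.960 with doxycycline.

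Of the maintenance pair, Dnmt1 was at 181.4 and 132.3 CPM in Wt at day 0, 249.9 and 230.3 CPM with doxycycline, 157.1 and 164.7 CPM at day 3, and 230.1 and 162.5 CPM at day 7. The Spen-/- levels were 204.0 and 175.0 CPM at day 0, 115.6 and 156.2 CPM with doxycycline, 136.8 and 176.5 CPM at day 3, and 71.7 and 76.1 CPM at day 7. In both conditions under doxycycline the Spen-/- libraries were below the Wt libraries, and without doxycycline the genotypes overlapped. At day 7 Dnmt1 was 2.65-fold lower in Spen-/- (log2 -1.41, SE 0.25, edgeR adjusted p = 0.00508), and without Wt day 7 1 the log2 difference was -1.18 with adjusted p = 0.0626. At day 0 with doxycycline it was 1.77-fold lower (log2 -0.82, SE 0.24, edgeR adjusted p = 0.290, unadjusted p = 0.00582). Doxycycline went with a Dnmt1 difference of 0.61 in Wt and -0.48 in Spen-/- on the log2 scale, each without overlap of the libraries, and the difference between these responses was -1.09 (95% interval -1.85 to -0.34), which did not pass across all genes (unadjusted p = 0.00820, edgeR adjusted p = 0.831).

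Averaged over the 4 conditions Dnmt1 was 1.41-fold lower in Spen-/- (log2 -0.50, SE 0.12, edgeR adjusted p = 0.0384), lower in 3 of 4 conditions, while the exact two-sided within-condition permutation gave p = 0.0571. That call was lost in 10 of the 16 fits that left out a library (adjusted p 0.0521 to 0.122, log2 differences over the 16 fits -0.57 to -0.44), being kept without Wt day 0 2, Wt day 7 2, Spen-/- day 0 1, Spen-/- day 0 doxycycline 2 or either Spen-/- day 7 library. From day 0 to day 7 in Spen-/- Dnmt1 fell by 0.88 on the log2 scale (SE 0.25, edgeR adjusted p = 0.0486). That call was kept without either Wt day 0 library and was lost in the other 14 such fits (adjusted p 0.0559 to 0.248). In Wt the corresponding log2 difference was -0.29.

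Uhrf1, which brings DNMT1 to hemimethylated DNA, was at 297.0 and 97.0 CPM in Wt at day 0, 330.8 and 220.9 CPM with doxycycline, 277.3 and 279.5 CPM at day 3, and 189.9 and 166.7 CPM at day 7. Its Spen-/- levels were 229.9 and 89.3 CPM at day 0, 166.3 and 171.3 CPM with doxycycline, 167.8 and 216.7 CPM at day 3, and 73.3 and 62.0 CPM at day 7. The day 0 replicates differed by up to 3.06-fold from each other, the widest replicate gap of any member, while in the other 3 conditions both Spen-/- libraries were below both Wt libraries. At day 7 Uhrf1 was 2.64-fold lower in Spen-/- (log2 -1.40, SE 0.49, edgeR adjusted p = 0.109), and averaged over the 4 conditions it was 1.67-fold lower (log2 -0.74, SE 0.24, edgeR adjusted p = 0.0981), with the mean lower in 4 of 4 conditions. An exact two-sided within-condition permutation gave an unadjusted p = 0.0309 for the average. Over the 16 libraries Uhrf1 and Dnmt1 had a Pearson r of 0.76 on the log2 CPM scale, a description over libraries that share conditions. The 12 genes of replicating cells examined beside them had a summed level of 3470 to 4100 CPM in the day 7 libraries of both genotypes. In the other libraries it was 4810 to 7149 CPM. At day 7 the Spen-/- sums (3696 and 4100 CPM) were within or above the Wt range (3470 and 3873 CPM). The sum joined genes that went both ways. Ccne1 (294.7 and 341.7 CPM against 109.9 and 102.2 CPM in Wt) and Rrm2 were higher in both Spen-/- libraries. Mcm5 (153.4 and 211.5 CPM against 267.1 and 292.5 CPM in Wt), Mcm2 and Mcm3 were lower in both, and the other genes overlapped.

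Tet1, the main 5-methylcytosine oxidase of ESCs, fell with differentiation in both genotypes. It was at 296.3 and 326.7 CPM in Wt at day 0, 263.3 and 346.2 CPM with doxycycline, 142.7 and 101.3 CPM at day 3, and 57.3 and 49.1 CPM at day 7. The Spen-/- libraries had 346.5 and 308.5 CPM at day 0, 264.7 and 220.2 CPM with doxycycline, 87.1 and 83.6 CPM at day 3, and 105.0 and 74.5 CPM at day 7. Every differentiated library was below every day 0 library. Tet1 fell by 1.35 on the log2 scale by day 3 in Wt (SE 0.24, edgeR adjusted p = 0.0205) and fell by 1.94 in Spen-/- (SE 0.24, edgeR adjusted p = 0.00243). By day 7 it fell by 2.52 in Wt (SE 0.25, edgeR adjusted p = 0.000158) and fell by 1.43 in Spen-/- (SE 0.24, edgeR adjusted p = 0.00435). The Wt day 3 call was lost without Wt day 0 2, Wt day 3 1 or Wt day 3 2 (log2 -1.29, -1.62 and -1.13). At day 7 Tet1 was 1.69-fold higher in Spen-/- (log2 0.75, SE 0.24, edgeR adjusted p = 0.0827), with no overlap.

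Tet2 was at 60.6 and 101.7 CPM in Wt at day 0, 24.2 and 38.9 CPM with doxycycline, 16.7 and 11.95 CPM at day 3, and 17.7 and 18.9 CPM at day 7. For Spen-/- the levels were 65.9 and 79.3 CPM at day 0, 21.4 and 11.4 CPM with doxycycline, 9.88 and 15.3 CPM at day 3, and 46.5 and 36.04 CPM at day 7. The day 0 libraries without doxycycline were the 4 highest of all 16, and Spen-/- day 7 was above Wt day 7. By day 3 Tet2 fell by 2.50 on the log2 scale in Wt (SE 0.45, edgeR adjusted p = 0.0210) and fell by 2.53 in Spen-/- (SE 0.45, edgeR adjusted p = 0.0193). Both calls were lost when a library of the pair compared was left out, except the first day 0 replicate of that genotype: the log2 changes were -2.09, -2.75 and -2.28 without Wt day 0 2, Wt day 3 1 and Wt day 3 2, and -2.38, -2.24 and -2.87 without Spen-/- day 0 2, Spen-/- day 3 1 and Spen-/- day 3 2. The average over both genotypes, again a comparison added after the values were seen, had Tet2 3.38-fold lower with doxycycline at day 0 (log2 -1.76, SE 0.31, edgeR adjusted p = 0.0300). That call was lost in 9 of the 16 fits that left out a library (adjusted p 0.0544 to 0.173), being kept without Wt day 0 1, Spen-/- day 0 1, Spen-/- day 0 doxycycline 1 or any 1 of the Spen-/- day 3 and day 7 libraries. Within a genotype the difference was -1.36 in Wt (edgeR adjusted p = 0.437) and -2.15 in Spen-/- (edgeR adjusted p = 0.145), and the difference between the genotypes was -0.79 (95% interval -2.10 to 0.53).

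From day 0 to day 7 under doxycycline Tet2 levels lay on opposite sides of those at day 0: both Wt libraries were lower at day 7 than at day 0, and both Spen-/- libraries were higher. The difference in Spen-/- was 1.33 on the log2 scale (SE 0.44, edgeR adjusted p = 0.0845), and the difference between the genotypes was 2.12 (SE 0.61, edgeR adjusted p = 0.122), neither of which passed. The ratio of Tet1 to Tet2 reads was 3.21 to 5.25 in the 4 day 0 libraries without doxycycline, 8.91 to 19.3 in the 4 with doxycycline, 5.47 to 8.81 at day 3 and 2.07 to 3.24 at day 7. At day 0 the ratio was higher with doxycycline than without, with no overlap in either genotype.

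Smchd1, the SMC protein of the inactive X, had the narrowest range of levels. It was at 56.9 and 92.9 CPM in Wt at day 0, 65.0 and 75.7 CPM with doxycycline, 101.4 and 88.6 CPM at day 3, and 131.5 and 110.7 CPM at day 7. In Spen-/- it was at 77.6 and 89.0 CPM at day 0, 68.8 and 64.4 CPM with doxycycline, 78.4 and 75.8 CPM at day 3, and 117.2 and 39.6 CPM at day 7. The Spen-/- day 7 libraries held the lowest and the second highest value of all 16, and the highest value was 3.32-fold above the lowest, against 3.48-fold for Dnmt1, the next member. Smchd1 passed the test in none of the 17 comparisons made with edgeR, and had an unadjusted p under 0.05 in 0 of them, nor was it called by DESeq2 in any. Averaged over the 4 conditions, Spen-/- minus Wt was -0.21 on the log2 scale (95% interval -0.65 to 0.23, edgeR adjusted p = 0.612). Xist, the RNA to which SMCHD1 recruitment is linked, was at 180.7 and 282.0 CPM in Wt and 80.9 and 38.6 CPM in Spen-/- at day 0 with doxycycline, and at 995.3 and 741.2 CPM in Wt and 199.4 and 75.1 CPM in Spen-/- at day 7. Lrif1, whose protein binds SMCHD1 and which was examined for that reason, was at 5.3996 and 19.8 CPM in Spen-/- at day 7 and at 31.8 and 29.2 CPM in Wt, and it passed the test in no comparison.

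**Figure D2:**
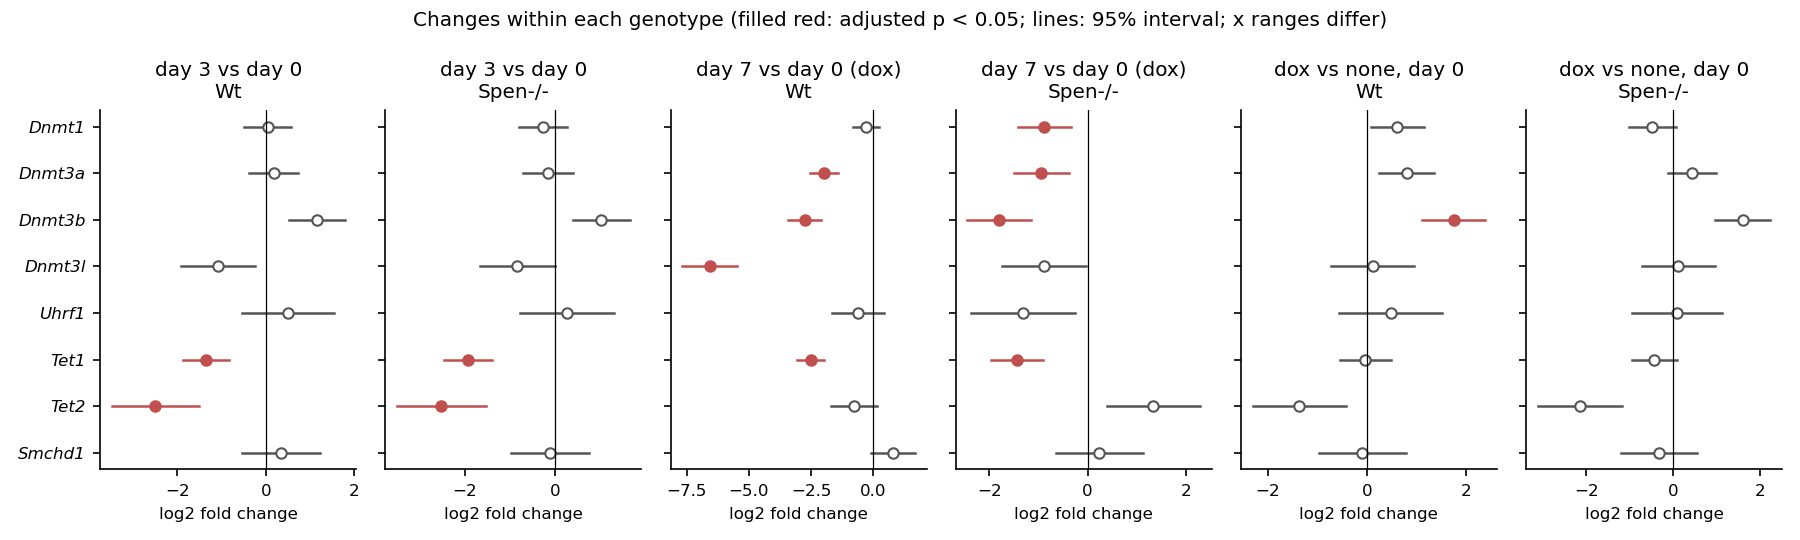
Log2 fold change of each member within a genotype, later minus earlier day or doxycycline minus none, with 95% intervals from edgeR over 16 libraries; filled red points passed at adjusted p under 0.05, and the x ranges differ between panels. Tet1 and Tet2 are filled at day 3 in both genotypes, and Dnmt3l is at -6.57 in the Wt day 7 panel and at -0.89 in the Spen-/- one.

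Counted over the 8 members, 2 members were called at day 3 in Wt and 2 in Spen-/-, Tet1 and Tet2 in each, both lower. Of all 18150 genes, 1.38% were called in Wt (0.43% higher, 0.953% lower) and 1.23% in Spen-/- (0.573% higher, 0.656% lower). Without overlap of the libraries were 4 members in each genotype, against 51.6% and 46.4% of all genes. Averaged over the genotypes 3 members were called, Dnmt3b higher and Tet1 and Tet2 lower, against 6.34% of all genes (2.87% higher, 3.48% lower). ESCs were grown on male feeder fibroblasts, which were removed before differentiation. The 4 Y-linked feeder markers summed to 3.62 to 18.1 CPM at day 0 without doxycycline and to 0 to 0.533 CPM at day 3. The 7 feeder fibroblast markers summed to 45.9 to 140.2 CPM and 57.6 to 75.9 CPM. The part of feeder RNA in the day 3 results was not tested. To day 7 under doxycycline 4 members were called lower in Wt (Dnmt3a, Dnmt3b, Dnmt3l and Tet1) and 4 in Spen-/- (Dnmt1, Dnmt3a, Dnmt3b and Tet1). Of all genes 4.57% were called in Wt (1.48% higher, 3.09% lower) and 8.33% in Spen-/- (3.36% higher, 4.98% lower). With upper quartile scaling 22.1% of the genes called in Wt were higher, against 32.4% with TMM. In the average 5 were called lower, the Wt 4 and Dnmt1, with 14.4% of all genes called (5.37% higher, 9.03% lower). The Dnmt1 call in this average (log2 -0.58, edgeR adjusted p = 0.0419) was kept without any 1 of the 4 day 0 libraries without doxycycline, Spen-/- day 0 doxycycline 1 or Wt day 7 1, and was lost in the other 10 fits that left out a library (adjusted p 0.0605 to 0.195). Without overlap were 8 members in Wt and 7 in Spen-/-, against 57.9% and 40.8% of all genes. The median log2 change of the members to day 7 was -1.39 in Wt and -0.91 in Spen-/-, where the median of all genes was -0.00 and -0.05. The day 0 libraries enter the doxycycline, the differentiation and the genotype comparisons alike, so these share samples.

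With doxycycline at day 0, 1 of 8 members was called in Wt (Dnmt3b, higher) and 0 in Spen-/-, with 0.149% of all genes called in Wt (0.0551% higher, 0.0937% lower) and 0.0716% in Spen-/- (0.011% higher, 0.0606% lower). In Spen-/- 2 members had an unadjusted p under 0.05, as had 1468 of all genes, and DESeq2 called Dnmt3b and Tet2 there among 414 genes. Averaged over both genotypes, the comparison added after the values were seen, 2 members were called (Dnmt3b higher, Tet2 lower), with 0.496% of all genes called (0.132% higher, 0.364% lower). Without overlap were 4 members in Wt and 6 in Spen-/-, against 35.7% and 31.1% of all genes. The test of a difference between the genotypes in the response to doxycycline called 0 members and 0 of all genes (0%), with 1 member, Dnmt1, and 1058 of all genes at an unadjusted p under 0.05, and DESeq2 called 0 members and 105 genes. Beside these results, the doxycycline-treated day 0 libraries also differed in other markers: the 7 feeder fibroblast markers summed to 12.8 to 51.4 CPM with doxycycline (1 to 4 of the 7 at 0) and 45.9 to 140.2 CPM without (0 or 1 at 0), and the 7 pluripotency markers to 1266 to 1718 CPM with and 1762 to 2211 CPM without. The 4 formative epiblast markers summed to 284 to 460 CPM with doxycycline and 229 to 250 CPM without, and Fgf5 was called among them in Wt. The part of these differences in the Dnmt3b and Tet2 results was not tested.

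**Figure D3:**
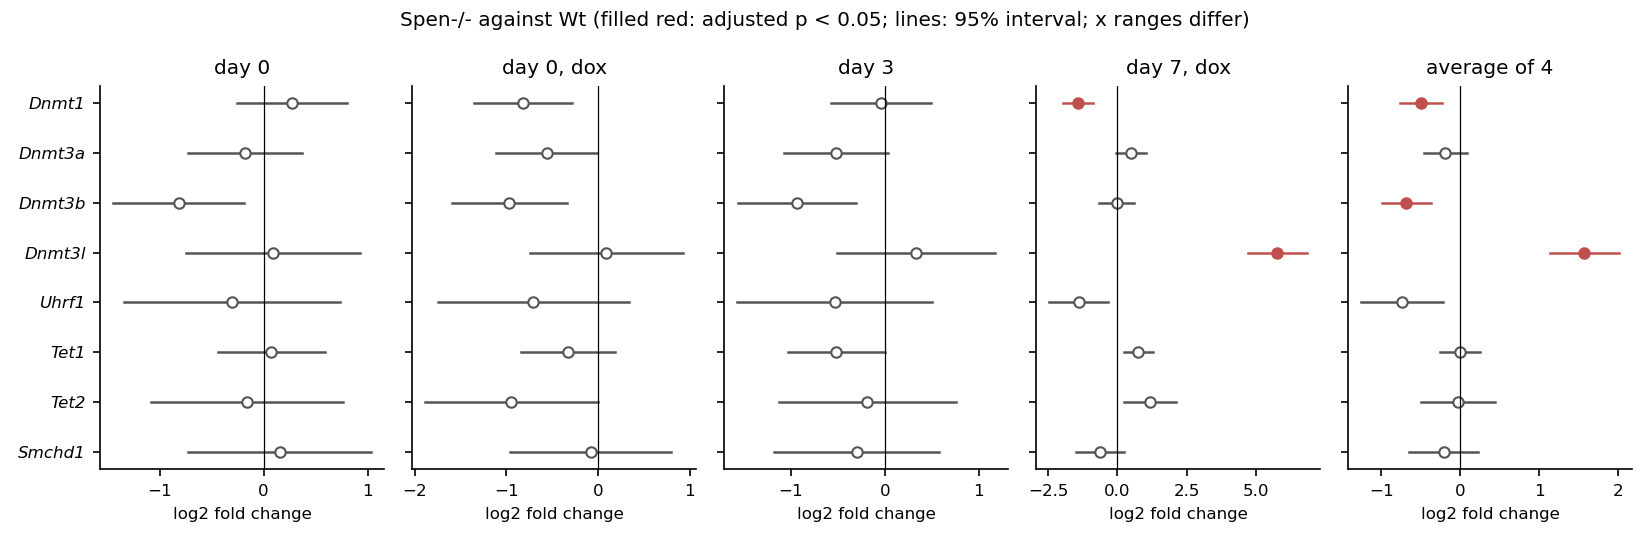
Log2 fold change of each member, Spen-/- minus Wt, in each condition and averaged over the 4 conditions, with 95% intervals from edgeR over 16 libraries; filled red points passed at adjusted p under 0.05, and the x ranges differ between panels. Dnmt3b is left of 0 at day 0, day 0 with doxycycline and day 3, and Dnmt3l at day 7 is the farthest point at 5.77.

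Between the genotypes, 0 of 8 members were called at day 0 without doxycycline, with 0 of all genes called (0%). There 1 member, Dnmt3b, and 828 of all genes had an unadjusted p under 0.05, DESeq2 called 0 members among 56 genes, and 1 member was without overlap against 26.7% of all genes. At day 0 with doxycycline 0 members were called by edgeR, with 0.0826% of all genes called (0.0551% higher, 0.0275% lower). There 4 members (Dnmt1, Dnmt3a, Dnmt3b and Tet2, each lower) and 1850 of all genes had an unadjusted p under 0.05, and DESeq2 called Dnmt1 and Dnmt3b among 545 genes. Of the members 5 were without overlap, each lower in Spen-/-, against 41.2% of all genes, or 24.6% counting lower genes. At day 3, 0 members and 0 of all genes (0%) were called, with 1 member, Dnmt3b, and 585 genes at an unadjusted p under 0.05, DESeq2 calling 0 members among 15 genes and 6 members without overlap against 45.2% of all genes. At day 7, 2 members were called, Dnmt1 lower and Dnmt3l higher, with 7.11% of all genes called (3.1% higher, 4.01% lower). DESeq2 called 5, adding Uhrf1, Tet1 and Tet2, whereas a fit of the 4 day 7 libraries alone called 0 of all genes. Of the members 6 were without overlap at day 7, against 52.8% of all genes. In the average of the 4 conditions 3 members were called, Dnmt1 and Dnmt3b lower and Dnmt3l higher, with 4.91% of all genes called (2.19% higher, 2.72% lower). The average for Dnmt3l (log2 1.57, SE 0.20, edgeR adjusted p = 0.00153) had the Spen-/- mean higher in 4 of 4 conditions, the exact permutation p being 0.0617, but the condition values were 0.09, 0.09, 0.33 and 5.77. The test of a difference between the genotypes in the change from day 0 to day 3 called 0 members and 0 of all genes (0%), with 0 members and 622 genes at an unadjusted p under 0.05, and DESeq2 called 0 members and 7 genes. For the change from day 0 to day 7 it called 1 member, Dnmt3l, with 2.01% of all genes called (0.915% higher, 1.09% lower), and DESeq2 called 3, adding Tet1 and Tet2.

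Of the wider pathway, 41 further genes were examined in 7 groups: cofactors of maintenance, demethylation and repair, methyl-CpG readers, protection of imprints and repeats, regulators of methylation in ESCs with 2 X chromosomes, the SMCHD1 partner Lrif1 and methyl donor supply. All 41 passed the filter. At day 0 with doxycycline 1 of 41 was called between the genotypes, against 0.0826% of all genes. At day 7 there were 9 (5 higher, 4 lower in Spen-/-), against 7.11% of all genes (3.1% higher, 4.01% lower), and in the average 4 (3 higher, 1 lower), against 4.91% (2.19% higher, 2.72% lower). The median log2 difference over the 41 at day 7 was -0.10, where that over all genes was -0.14.

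Klhl13, an X-linked gene known to slow the differentiation of female ESCs, fell with doxycycline in Wt. Its levels were 871.6 and 866.5 CPM in Wt at day 0 and 290.0 and 266.3 CPM with doxycycline, and in Spen-/- 815.6 and 939.8 CPM and 775.1 and 810.5 CPM. The Wt libraries with doxycycline were below the other 6 day 0 libraries. Without doxycycline Klhl13 was also lower at day 3 than at day 0 in both genotypes. Its day 3 levels were 202.8 and 212.1 CPM in Wt and 392.2 and 330.4 CPM in Spen-/-. At day 7 it was at 90.9 and 112.6 CPM in Wt and 344.0 and 563.9 CPM in Spen-/-, where it was among the pathway genes called higher in Spen-/-. Klhl13 fell by 1.64 on the log2 scale with doxycycline in Wt (SE 0.22, edgeR adjusted p = 0.0148), the difference in Spen-/- being -0.15 (SE 0.22, edgeR adjusted p = 0.972). The difference between these responses, 1.497 (SE 0.309), did not pass (edgeR adjusted p = 0.420), while at day 0 with doxycycline Klhl13 was higher in Spen-/- (log2 1.51, SE 0.22, edgeR adjusted p = 0.0304). Set beside it, the Dnmt3b response to doxycycline was 3.36-fold in Wt and 3.03-fold in Spen-/-. Whether the Klhl13 and Dnmt3b responses are linked was not tested. Dusp9, an X-linked ERK phosphatase of the same group, was at 99.1 and 32.5 CPM in Wt at day 0 and 136.4 and 70.2 CPM with doxycycline, and rose by 1.98 on the log2 scale by day 3 averaged over the genotypes (SE 0.37, edgeR adjusted p = 0.00935). Prdm14, a repressor of the de novo enzymes in ground-state ESCs, was at 0 and 1.05 CPM in Spen-/- and 9.76 and 9.33 CPM in Wt at day 7 (edgeR adjusted p = 0.0328).

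**Figure D4:**
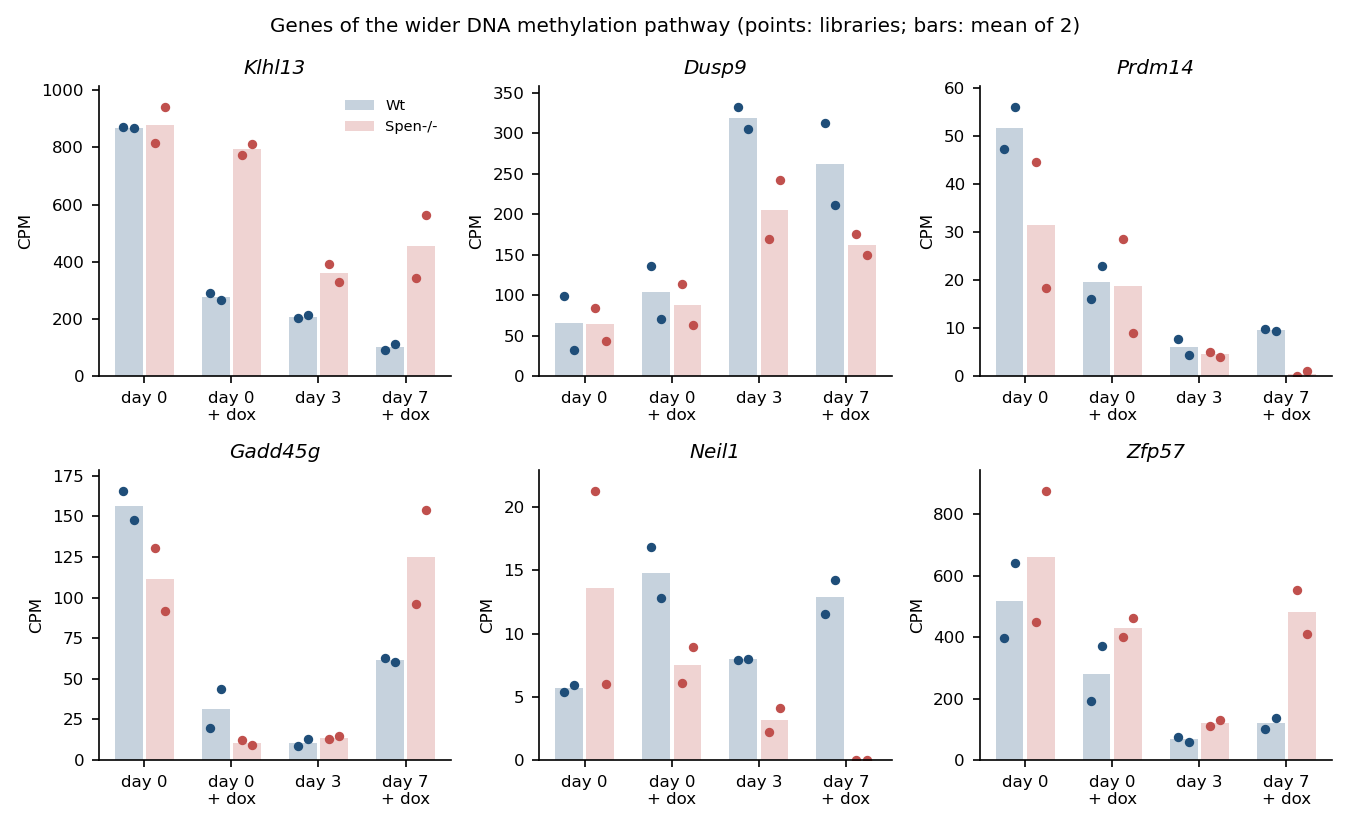
Level in CPM (TMM-scaled, linear axis from 0) of 6 genes of the wider pathway in the 4 conditions of Wt and Spen-/- cells, with points for the 2 libraries and bars for their mean. Klhl13 drops from 871.6 and 866.5 CPM to 290.0 and 266.3 CPM with doxycycline in Wt but is at 775.1 and 810.5 CPM in Spen-/-.

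Among the 7 maintenance cofactors, 3 were called higher and 2 were called lower in Spen-/- at day 7. Hells, a remodeller that opens chromatin to DNMTs, was higher (642.4 and 513.2 CPM against 240.5 and 302.8 CPM in Wt, log2 1.09, SE 0.21, edgeR adjusted p = 0.00908). Dppa3, which displaces UHRF1 from chromatin, was at 30.5 and 37.4 CPM against 11.2 and 12.1 CPM (log2 1.54, SE 0.31, edgeR adjusted p = 0.0102), and Usp7 was the other that was called higher. Lig1, the replicative ligase, was lower (158.0 and 153.6 CPM against 314.7 and 293.6 CPM, log2 -0.97, SE 0.17, edgeR adjusted p = 0.00443), as was Cdca7, the partner of HELLS (29.95 and 53.4 CPM against 120.2 and 105.3 CPM, log2 -1.44, SE 0.35, edgeR adjusted p = 0.0286). By day 7 under doxycycline 3 of the 7 were called lower in Wt and 4 in Spen-/-, against 3.09% and 4.98% of all genes. None of the 7 was called higher in either.

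Of the 13 genes of demethylation and repair, Neil1, a base excision glycosylase, was called lower in Spen-/- at day 7, and 0 were called higher. It had 0 reads in both Spen-/- libraries and 11.5 and 14.2 CPM in Wt, at least 70.3-fold lower against a floor of 3 reads over the group (edgeR adjusted p = 0.000978). Gadd45g, a growth arrest gene linked to demethylation, was at 130.7 and 91.6 CPM in Spen-/- at day 0 and at 12.2 and 9.26 CPM with doxycycline (log2 -3.37, SE 0.43, edgeR adjusted p = 0.0229). In Wt it was at 165.3 and 147.5 CPM at day 0 and 19.7 and 43.7 CPM with doxycycline. Averaged over the genotypes, the comparison added after the values were seen, Gadd45g fell by 2.84 (SE 0.29, edgeR adjusted p = 0.00207). Among the 7 protectors of imprints and repeats, Zfp57, the zinc finger protein that holds methylation at imprints, was the gene called at day 7 (555.3 and 410.5 CPM in Spen-/- against 102.5 and 136.2 CPM in Wt, log2 2.02, SE 0.39, edgeR adjusted p = 0.00797), and by day 3 it fell by 2.70 averaged over the genotypes (SE 0.28, edgeR adjusted p = 0.000199). Of the 7 methyl-CpG readers 0 were called between the genotypes in any condition, and of the 3 genes of methyl donor supply likewise 0. By day 7 averaged over the genotypes 3 readers (Mbd2, Zbtb4 and Zbtb38) were called higher, against 5.37% of all genes. All 3 methyl donor genes (Mat2a, Mat2b and Ahcy) were called lower, against 9.03% of all genes.

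The genes whose log2 CPM followed each member most closely over the 16 libraries, among 9223 genes with a mean of at least 10 CPM, are given as a description, since libraries share conditions. Dnmt3l went with Dppa2 (Pearson r 0.99), Bcat1 (0.98) and Dppa4 (0.97), and Tet1 with Rest (0.96), Esrrb (0.95) and Rpl13a (0.95). Dnmt3b went with Slc7a7 (0.94), Etv5 (0.92) and Tfdp1 (0.91), and Dnmt3a with Ltbp4 (0.92), Mycn (0.90) and Phc1 (0.89). Dnmt1 went with Cep120 (0.93), Ppm1l and Anp32e (0.90 each), and Uhrf1 with Ubap2 (0.95), Smyd5 (0.95) and Cog1 (0.94). The closest to Tet2 and Smchd1 were lower in r, 9830144P21Rik, Rab27a and Sgo2a (0.89 to 0.90) for the first and Snx9, Ak3 and Mrnip (0.85 to 0.86) for the second. Among the members, the closest pair was Dnmt3a with Dnmt3b (0.86).

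Reads that could be assigned to the 129 or the Cast allele gave an allelic ratio for the members, which are autosomal, whereas the inducible Xist lies on the Cast X chromosome. Over all libraries the Cast share was 0.678 for Dnmt3a (95% Wilson interval 0.661 to 0.695, 2925 reads, counting error only), the 87.8th percentile of 14136 autosomal genes, whose median share was 0.489. It was 0.483 for Dnmt1, 0.452 for Dnmt3b, 0.527 for Dnmt3l, 0.477 for Uhrf1, 0.456 for Tet1, 0.402 for Tet2 (595 reads) and 0.541 for Smchd1. The Dnmt3a share was above 0.5 in every library, from 0.524 to 0.785. Of the 8 members 6 had enough allele-specific reads in every condition to be tested, Dnmt3l and Tet2 being left out. Between the genotypes 0 of these 6 passed the test of a different Cast share in any condition. Of 6442 genes tested, 0% were called at day 0, 0.435% at day 0 under doxycycline, 0% at day 3 and 3.88% at day 7. With doxycycline at day 0, 0 of the 6 were called in Wt and 0 in Spen-/-, against 0.605% and 0% of all genes.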

How the data were processed

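Total RNA was the input to Smart-seq2, and Nextera libraries of the cDNA were sequenced as 50-base single reads, in 16 libraries of 8 conditions with 2 libraries each. The deposited files hold raw read counts per Ensembl gene, which the authors made by aligning with HISAT2 2.2.1 to mm10 with strain-specific bases masked, sorting reads by allele with SNPsplit, and counting with HTSeq 0.12.4 (SAMtools 1.10 is also named) in 3 classes: 129, Cast and unassigned. Whether counting used strand is not given in the sources used here. Rows that name no gene, 31.6% to 45.4% of a library, were left out.

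The 3 classes were summed per gene (55421 genes, of which 55154 were named from GENCODE M21). Genes were filtered with filterByExpr (minimum count 10), scaled by TMM and tested with edgeR 4.0.16 in R 4.3.3 (quasi-likelihood F-test, all 16 libraries in 1 fit, Benjamini-Hochberg adjustment over 18150 genes, threshold 0.05). Differences are Spen-/- minus Wt, doxycycline minus none, or later minus earlier day. CPM values are counts as scaled by TMM, with a prior count of 2 on the log2 scale. Allelic shares were tested with 129 and Cast counts as paired observations per library. Intervals on shares cover counting error only. DESeq2 1.42.0, other scalings, no filter, leaving out each library, a replicate block and fits of the compared conditions alone were alternatives. On data simulated for the day 7 genotype comparison (17120 genes), 49% of 4-fold and 85% of 16-fold changes were called, with 4.96% of calls false. Reads on genes were 7571566 to 14822867 per library, and 2 libraries per condition limit the precision: an exact permutation of 2 against 2 cannot go below p = 0.333.

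The members and gene lists were chosen with earlier results of these data known. All 8 members are named in every comparison, up to 4 called genes per pathway list with the largest change, and the 3 genes closest to each member by Pearson r over the libraries. Some genes are named beside a result they bear on, chosen after their values were seen. They are T, Fgf5, Zfp42, Pou5f1, Aire, Dnmt3c, Lrif1, Ccne1, Rrm2, Mcm2, Mcm3 and Mcm5.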

Additional observations from a re-analysis of the deposited data

Results flagged for a closer look

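3 results differed between Wt and Spen-/- in the change from day 0 to day 7 under doxycycline, by a test of the difference itself. Dnmt3l differed by 5.68 on the log2 scale (edgeR adjusted p = 0.000728), with 1.26 and 3.17 CPM in Wt and 114.4 and 127.9 CPM in Spen-/- at day 7, and both Spen-/- libraries above both Wt libraries. Gadd45g differed by 2.58 (SE 0.56, edgeR adjusted p = 0.0374), its level going from 19.7 and 43.7 to 63.0 and 60.5 CPM in Wt and from 12.2 and 9.26 to 96.2 and 153.8 CPM in Spen-/-. Neil1 had a fitted difference of -9.02 (edgeR adjusted p = 0.0106), a value set by the prior count since both Spen-/- day 7 libraries had 0 reads. With 2 libraries a condition, single libraries could not be tested for standing apart from their group.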

How the results depend on the processing

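The log2 differences refitted here were those with an unadjusted p under 0.05 in the main fit and a few others given above. Changes of sign were therefore unlikely from the start. Under RLE and upper quartile scaling, no filter on low counts, DESeq2, fits of the compared conditions alone, fits without both Spen-/- day 7 libraries, a robust fit (added after the data were seen), a replicate block and other settings of the allelic test, 0 of 460 log2 differences changed sign, and 135 of 148 counts of members called stayed within 1.5 times. Of the 460, 19 lost and 35 gained a call. The exceptions follow, and for them the cause was not tested. DESeq2 called 2 members between the genotypes at day 0 with doxycycline (edgeR 0), 5 at day 7 (edgeR 2), 2 with doxycycline in Spen-/- (edgeR 0) and 3 for the difference between the genotypes in the change to day 7 (edgeR 1). Without a filter 1 member was called between the genotypes at day 0 with doxycycline, 2 with doxycycline in Spen-/- and 4 at day 3 in Wt. Fits of the compared conditions alone, which have fewer libraries to estimate the spread, called 0 members between the genotypes at day 7, with doxycycline in Wt and on average, at day 3 in either genotype, and at day 7 in Spen-/-. Upper quartile scaling moved the median of all genes by 0.14 in the day 7 genotype comparison and by -0.13 in the Wt change to day 7, and no longer called Dnmt1 in the average over conditions.

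Leaving out each library in turn gave 0 members between the genotypes in either day 0 condition and at day 3, 1 to 3 at day 7 and 1 to 4 on average, 0 to 1 with doxycycline in Wt and 1 to 2 on average, 0 to 3 at day 3 in Wt and 1 to 2 in Spen-/-, and 2 to 5 at day 7 in Spen-/-. The difference between the genotypes in the Dnmt3b response to doxycycline, -0.15 and not called, ranged from -0.60 to 0.16 and was above 0 without Wt day 0 2 (0.10), Wt day 0 doxycycline 1 (0.12) or Spen-/- day 0 doxycycline 2 (0.16). Of 976 log2 differences refitted in this way, chosen by the same rule as the 460, 83 lost and 14 gained a call.

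Over all genes the counts called depended on the tool. DESeq2 called 56 genes between the genotypes at day 0 where edgeR called 0, 545 against 15 at day 0 with doxycycline, 15 against 0 at day 3, 3008 against 1291 at day 7 and 2446 against 891 on average. With doxycycline it called 344 against 27 in Wt, 414 against 13 in Spen-/- and 669 against 90 on average. For differentiation it called 1235 against 251 and 1204 against 223 at day 3, 2619 against 1151 on average, 2016 against 829 and 3364 against 1512 at day 7, and 4318 against 2614 on average. For the differences between these responses it called 105 against 0, 7 against 0 and 1267 against 364. Without a filter the numbers in the same order were 17, 385, 23, 2521 and 2397, then 290, 252 and 626, then 949, 916, 2396, 1418, 2748 and 3781, then 83, 13 and 1002.

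Deviations of same-numbered libraries were compared in 28 pairs of conditions, giving correlations from -0.18 to 0.30 (median 0.037). Of the correlations, 7 were above 0.1 and 4 were below -0.1. Whether same-numbered libraries of some conditions shared a batch was not tested. With a replicate block the same members were called in every comparison except at day 7 in Spen-/- (3, without Dnmt1, which RLE scaling also dropped there), and over all genes the block moved calls by over 1.5 times with doxycycline in Wt (47) and in Spen-/- (8). With the longest transcript or the median transcript as length, 10 of 16 mean levels per length moved by more than the spread between libraries. At 2 libraries a condition the intervals are wide, and a member that was not called may still differ by any size within its interval.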
